A study of Mus musculus with 2 samples.

Results

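The 10 genes described here belong to the folding and stress responses of the endoplasmic reticulum. They were chosen by name, and every probe that the platform annotation assigns to one of them was read from both arrays. Each gene had 1 probe, and the 10 genes are part of 19318 named genes on the array. Manf, Creld2, Sdf2l1, Calr, Pdia4, Xbp1 and Herpud1, 7 genes, serve folding and quality control in the endoplasmic reticulum. Ddit3, Asns and Trib3, 3 genes, are transcribed in the integrated stress response. RNA came from whole liver of Twist2-Cre/A20fl/fl mice, called CKO here, and of Twist2-Cre controls, both at 24 weeks, with 1 single-colour array per genotype. Both groups carry Twist2-Cre, which recombines floxed alleles in mesenchymal lineages. CKO differs by the floxed A20 gene, Tnfaip3, whose product restrains NF-kB signalling. How many animals gave each RNA is not stated in the labels.

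Proteins that enter the endoplasmic reticulum are folded by chaperones and disulfide isomerases, and failed proteins are returned to the cytosol for degradation. When unfolded proteins build up, the sensors IRE1, ATF6 and PERK start the unfolded protein response: IRE1 splices the mRNA of Xbp1, and XBP1 and cleaved ATF6 raise transcription of chaperone genes. PERK, like GCN2 under amino acid shortage, phosphorylates the initiation factor eIF2 alpha, which favours translation of ATF4. ATF4 then raises Ddit3, Asns and Trib3, and this branch is called the integrated stress response. Hepatocytes secrete most plasma proteins and keep a large endoplasmic reticulum.

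Both groups are known for the DNA elements through which these factors act, so most promoter stretches that hold a match are shown. Windows of 250 bases before to 50 bases after the start were available for 9 of the 10 genes (RefSeq, GRCm38.p6), and both strands were searched. The endoplasmic reticulum stress response element, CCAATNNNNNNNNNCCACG, was found in Creld2 and Calr, 2 of the 9 genes, and in 39 of all 32851 windows (0.119%). With 1 mismatch allowed in its CCACG part, it was found in 5 of the 9 genes, adding Pdia4, Herpud1 and Ddit3, and in 0.998% of all windows. Its fixed parts are in capitals, and in these 4 windows the element runs opposite to the gene. Creld2 and Calr hold the full element, Pdia4 and Ddit3 the one with a mismatch.
Creld2, chr15:88819500-88819558, plus strand: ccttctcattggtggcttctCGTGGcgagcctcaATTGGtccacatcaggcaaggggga
Calr, chr8:84847055-84847113, minus strand: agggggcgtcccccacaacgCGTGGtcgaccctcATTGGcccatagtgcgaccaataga
Pdia4, chr6:47813582-47813640, minus strand: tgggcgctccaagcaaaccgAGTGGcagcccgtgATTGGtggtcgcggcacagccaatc
Ddit3, chr10:127290682-127290740, plus strand: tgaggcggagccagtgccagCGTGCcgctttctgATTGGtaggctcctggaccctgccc

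A shorter form of this element, ATTGG and CCACG with 1 base between them, was found in Herpud1 and in 0.0365% of all windows. The composite element of C/EBP and ATF factors, TGATGNAA, was found in Herpud1, Asns and Trib3 and in 3.97% of all windows. It lies in 2 of the 3 stress response genes and in 1 of the folding genes with a window. In Trib3 the match lies after the start and is not printed. For Herpud1 the composite element and the longer element with a mismatch are not printed either. In Asns, which encodes asparagine synthetase, the composite element ends 15 bases before the start. The XBP1 element TGACGTGG was found in none of the 9 genes and in 0.676% of all windows. The fixed letters of each element are in capitals below.
Herpud1, chr8:94386357-94386407, plus strand: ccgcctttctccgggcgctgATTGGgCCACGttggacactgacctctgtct
Asns, chr6:7693210-7693252, minus strand: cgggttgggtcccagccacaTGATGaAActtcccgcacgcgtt

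Differences between the 2 arrays in these genes were small. Of the folding genes, 5 of 7 were lower in the CKO liver, by 0.11 to 0.33 on the log2 scale, while Xbp1 and Herpud1 were close to equal. Lower ratios of any size were seen in 57.7% of all genes above background. Against the scanner's local background column Manf, Sdf2l1, Calr and Pdia4 were higher in CKO instead. Of the stress response genes, Asns was higher, Trib3 close to equal and Ddit3 slightly lower. As each genotype had 1 array, nothing could be tested or checked in a replicate, and each value describes these 2 arrays. Ratios are log2 of CKO over control after background correction, an offset of 50 and quantile normalization. The offset shrinks the ratios of dim probes, so the deposited intensities come first for each gene. They are linear values that reach 0 at about the blank level, and how they were made is not stated. Whole liver holds many cell types, and fewer cells of a type and less RNA per cell cannot be told apart.

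**Figure D1:**
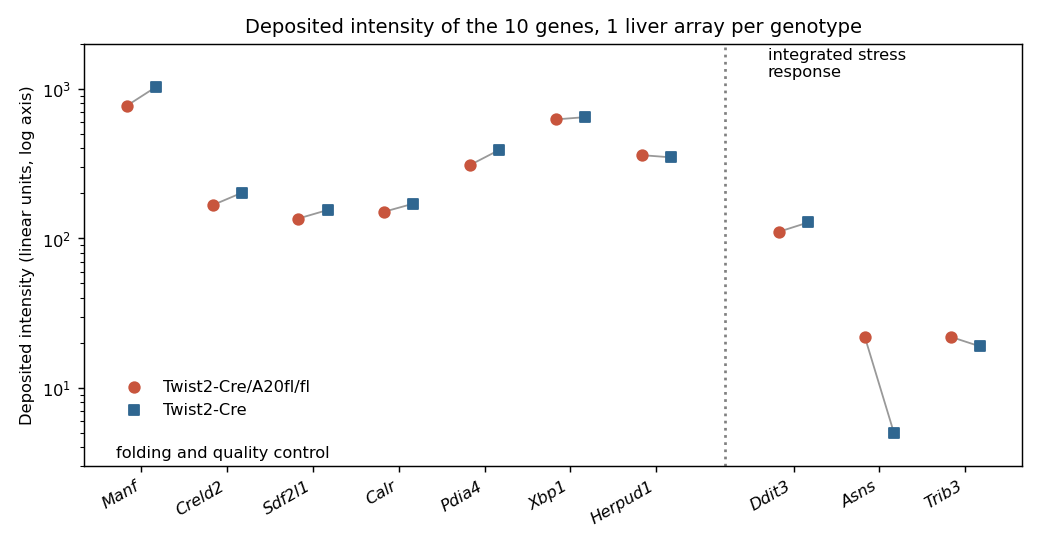
Deposited intensity (vertical log axis, linear intensity units) of the 10 genes on the CKO array (circles) and the control array (squares), 1 array each. Manf, Creld2, Sdf2l1, Calr, Pdia4, Xbp1 and Ddit3 have the CKO value below the control value. Asns stands out with 22 in CKO against 5 in control. Heights of different genes come from different probes and are not comparable.

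None of the 10 genes was at least 1.5-fold higher or lower on the normalized scale. Of the 14143 genes with signal above background on each array, 1.7% passed 1.5-fold on the higher side and 0.417% on the lower side. In the deposited values 1 of the 10, Asns, was at least 2-fold higher, beside 3.51% of those genes, and none was 2-fold lower, beside 0.728%. All 10 genes were above background on both arrays, that is above the mean of the blank spots plus 2 SD, a line at 72.2 on the CKO array and 69.5 on the control array. The targeted gene, Tnfaip3, had deposited intensities of 38 in CKO and 41 in control, a log2 ratio of -0.07. What part of the transcript its probe reads is not known, so it does not check the labels. Hepatocyte markers were bright on both arrays, with albumin (Alb) at 36770 in CKO and 37445 in control.

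Manf encodes a small secreted protein retained in the endoplasmic reticulum, where it binds the chaperone BiP, and it is a standard target of the unfolded protein response. Its deposited intensity was 772 in the CKO liver and 1031 in the control liver. The normalized log2 level was 9.96 in CKO and 10.28 in control, a ratio of -0.33, the lowest of the 10 genes. Among the 707 genes of its level class (all genes were cut into 20 classes by mean level), 92.2% had a higher ratio, and the class had an SD of 0.31. Its distance from equal levels was thus slightly larger than the class SD.

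Pdia4 is a disulfide isomerase with several thioredoxin-like domains that forms and rearranges disulfide bonds. Its deposited intensity was 310 in CKO and 391 in control. The ratio of -0.26 was within the class SD of 0.40, and 88.3% of genes in the class had a higher one.

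Creld2 is a cysteine-rich protein of the endoplasmic reticulum that is released under stress. It had deposited intensities of 167 in CKO and 202 in control, and a ratio of -0.20. In its class 81.5% of genes had a higher ratio, and the class SD was 0.29. Sdf2l1, a component of the BiP chaperone cycle, had 136 in CKO and 155 in control, and a ratio of -0.13. Calr, calreticulin, is the lectin chaperone that holds newly made glycoproteins and binds calcium. It had 151 in CKO and 171 in control, and a ratio of -0.11. These 3 genes were lower in CKO by amounts smaller than the spread of genes at their level.

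Xbp1 and Herpud1 did not share that direction. Xbp1 encodes the transcription factor whose mRNA IRE1 splices, and the array does not separate spliced from unspliced mRNA as far as the probe annotation shows. Its deposited intensity was 626 in CKO and 648 in control. Its normalized ratio was 0.02, and in the deposited values it was -0.05, so no direction can be given. Herpud1, a membrane protein of the degradation complex for misfolded proteins, had 361 in CKO and 349 in control, a ratio of 0.09, and 74.0% of genes in its class had a lower one.

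**Figure D2:**
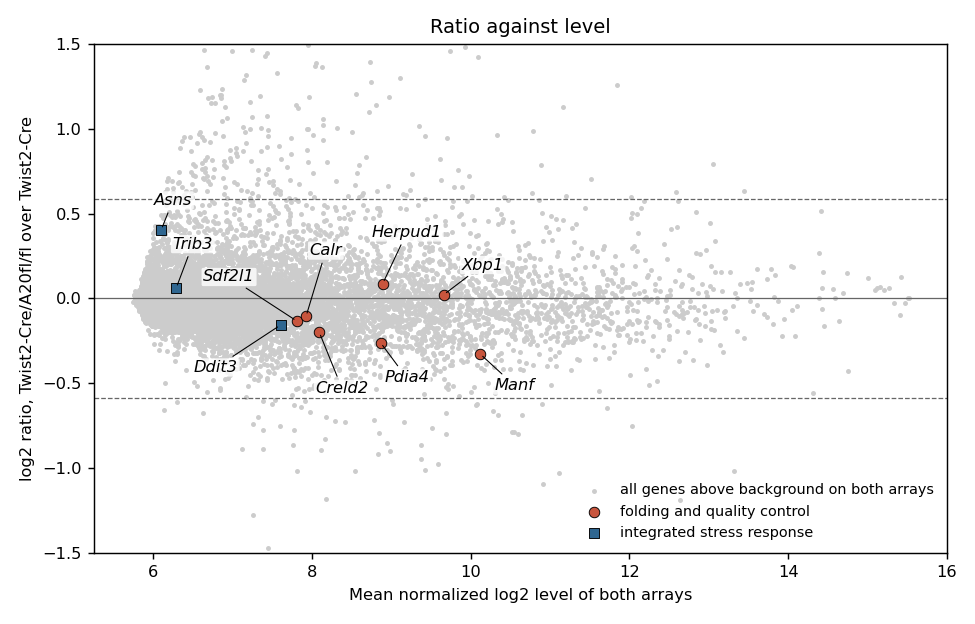
Log2 ratio of CKO over control (vertical axis) against the mean normalized log2 level of both arrays (horizontal axis) for all genes above background (grey), the folding genes (circles) and the stress response genes (squares). Dashed lines mark 1.5-fold, and all 10 genes lie between them; 41 grey genes lie outside the axis limits of 1.5.

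The stress response genes differed in direction. Ddit3 encodes CHOP, a transcription factor of prolonged stress. It had deposited intensities of 111 in CKO and 128 in control, and a ratio of -0.16, in the same range as the lower folding genes. Trib3, a pseudokinase induced by ATF4 and CHOP that binds AKT, had 22 in CKO and 19 in control, and a ratio of 0.06. Both were within the class SD, 0.27 for Ddit3 and 0.14 for Trib3.

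Asns, the enzyme that makes asparagine from aspartate and glutamine, had the largest ratio of the 10. Its deposited intensity was 22 in CKO and 5 in control, a 4.40-fold difference, beside 0.827% of all genes at least 4-fold higher. The scanner's spot intensity was 95.3 in CKO and 73.2 in control, against blank spots with a mean of 69.3 (SD 1.45, 384 spots) in CKO and 67.2 (SD 1.17, 384 spots) in control. The control spot was therefore 6.01 units above the blank mean, and the fold rests on that small remainder. With the offset the ratio was 0.40, or 1.32-fold, and with an offset of 16 it was 0.80. Even so, 99.2% of the 707 genes of its level class had a lower ratio, with a class SD of 0.09. The size of the Asns difference therefore depends on the treatment of background. Its ratio was above 0 under all 7 ways of processing shown in the plot of ratios by processing. All of them use the same 2 spots, so the shared sign is no independent check. Against the local background column the ratio was 0.07.

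The contrast between the groups was small and depended on which stress response genes were included. The median ratio was -0.13 over the 7 folding genes and 0.06 over the 3 stress response genes, a difference of -0.19, beside a median of -0.02 over all 14143 genes. Lower ratios in CKO were seen in 5 of 7 folding genes and 1 of 3 stress response genes, beside 57.7% of all genes. Without Asns the difference was -0.086, and without Ddit3 it was -0.37. In the deposited values the median was -0.19 for the folding genes and 0.21 for the stress response genes, a difference of -0.40, with a median of -0.05 over all genes.

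**Figure D3:**
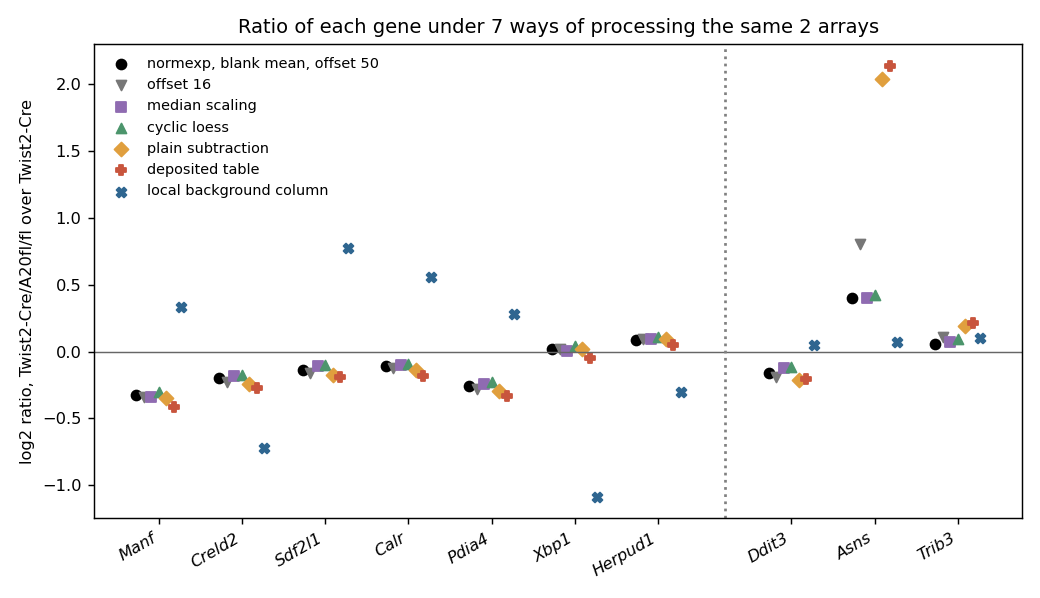
Log2 ratio of CKO over control (vertical axis) of each of the 10 genes under 7 ways of processing the same 2 arrays. For Manf, Sdf2l1, Calr and Pdia4, 6 of the 7 points lie below 0 and the point from the local background column lies above it; Asns ranges from 0.07 to 2.14.

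Subtracting the scanner's local background column turned the direction of 7 of the 10 genes. Under it Manf was at 0.33, Sdf2l1 at 0.77, Calr at 0.56, Pdia4 at 0.28 and Ddit3 at 0.05, while Xbp1 was at -1.08 and Herpud1 at -0.30. Creld2 stayed lower at -0.72. The folding median became 0.28 and the difference from the stress response genes 0.21. The column was about as bright as the spot for Manf and Herpud1. It was 98.7% of the spot in CKO and 105.9% in control for Manf, and 101.4% in CKO and 100.1% in control for Herpud1. For Pdia4 it was 28.0% of the spot in CKO and 71.6% in control, and for Calr 41.7% in CKO and 82.7% in control. For Sdf2l1 it was 63.4% in CKO and 97.6% in control. Across all spots the column correlated with the spot's own log2 intensity (r = 0.973 in CKO and 0.989 in control), so the blank spots were used as background.

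Other chaperones and foldases showed no common shift. Of 27 measured genes, all above background, 17 were lower (63.0%, beside 57.7% of all genes) and 10 higher in CKO, with a median ratio of -0.02, equal to that of all genes to 2 decimals, and none past 1.5-fold. Under cyclic loess the median was 0.01. The largest ratios belonged to Fkbp2 (0.49, deposited intensity 864 in CKO and 634 in control) and Fkbp11 (0.35, 53 in CKO and 32 in control), prolyl isomerases of the endoplasmic reticulum. On the lower side were Txndc11 (-0.31, 113 in CKO and 153 in control), a thioredoxin-domain protein, and Dnajb9 (-0.28, 109 in CKO and 142 in control), a BiP cochaperone. Against the local background column Txndc11 was at 0.39 and Fkbp11 at -0.02.

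A few well-known chaperones and paralogues were read outside the rule for named genes, after their values had been seen. Hspa5, which encodes BiP, had a deposited intensity of 4166 in CKO and 5424 in control, a ratio of -0.22. The other abundant luminal chaperone, Hsp90b1, had 5190 in CKO and 5608 in control, a ratio of -0.02. Creld1, the paralogue of Creld2, was at -0.24, with 143 in CKO and 182 in control. Sdf2, the paralogue of Sdf2l1, was at -0.03, and Canx, the membrane-bound relative of calreticulin, at -0.09. Herpud2 was at 0.10, close to Herpud1, and the Manf relative Cdnf was near background, with 6 in CKO and 5 in control. BiP and Creld1 were thus in the range of the lower folding genes, and the other 5 were closer to equal. Disulfide isomerases related to Pdia4 went both ways. Pdia3 was at -0.12 and P4hb at -0.13, while Pdia5 was at 0.12 and Pdia6 at 0.09.

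Degradation of misfolded proteins showed no shift. Of 20 measured genes 10 were higher and 10 lower, with a median of 0.00 and none past 1.5-fold. The mannosidase-like protein Edem3 (-0.20) and the ubiquitin ligase Syvn1 (-0.19) were the lowest, and the ligase Rnf139 (0.20) and Edem2 (0.16) the highest. For Syvn1, the deposited intensity was 56 in CKO and 71 in control, and against the local background column its ratio was 0.08.

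Genes of translocation into the endoplasmic reticulum and of signal peptide removal were lower in 13 of 21 cases (61.9%, beside 57.7% of all genes), with a median of -0.09, beside -0.02 over all genes. Spcs2, a subunit of the signal peptidase complex, was the lowest at -0.55, with 652 in CKO and 1031 in control. Sec61b, of the translocation channel, was at -0.25 (1273 in CKO and 1592 in control), the receptor subunit Srprb at -0.24 (17 in CKO and 28 in control) and Srp68, of the signal recognition particle, at -0.18. None was past 1.5-fold on the normalized scale, and Spcs2 was 0.66 lower on the log2 scale in the deposited values. Sec61b was at 1.01 against the local background column.

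Ern1, Atf6 and Eif2ak3, which encode the sensors IRE1, ATF6 and PERK, were read outside the rule for named genes. Deposited intensities in CKO and control were 22 and 25 for Ern1, 20 and 15 for Atf6, and 93 and 90 for Eif2ak3. Their ratios were -0.07, 0.10 and 0.04, beside -0.18, 0.42 and 0.05 in the deposited values. Ern1 and Atf6 were dim, and the offset shrinks their ratios, so equal levels are not shown. Of all listed sensors and processing factors, 6 of 12 were higher and 6 lower, with a median of 0.00. Creb3l3, a liver transcription factor cleaved like ATF6, was the highest at 0.19 (1520 in CKO and 1368 in control), and Creb3l1 the lowest at -0.18 (186 in CKO and 219 in control). Mbtps1, the protease that cleaves ATF6, was at -0.15, and Rtcb, the ligase that joins the spliced Xbp1 mRNA, at 0.14. Against the local background column Mbtps1 was at 0.53 and Rtcb at -0.40.

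Regulators of the integrated stress response differed in both directions. Of 10 measured above background, 5 were higher and 5 lower, with a median of 0.00. Cebpb, a partner of ATF4 and CHOP that is also an acute phase factor in liver, was at 0.47, with 975 in CKO and 726 in control. Atf5, another ATF factor of this response, was at -0.42. Ppp1r15a, the GADD34 subunit that reverses eIF2 alpha phosphorylation, was at -0.22, with 25 in CKO and 36 in control, and Cebpg was at -0.16. Cebpg was at 0.15 against the local background column.

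Of 22 measured targets of ATF4 and CHOP, 18 were above background. Of these, 7 were higher and 11 lower (61.1%, beside 57.7% of all genes), with a median of -0.02. In the deposited values 2 were at least 2-fold higher, beside 3.51% of all genes. Mthfd2, a mitochondrial folate enzyme, was at 0.30, with deposited intensities of 23 in CKO and 10 in control. Psat1, of serine synthesis, named outside the rule because it is the second of these 2 genes, had 10 in CKO and 4 in control, and a ratio of 0.16. Like Asns, both were close to the blank spots. The lipoprotein receptor Vldlr was the lowest at -0.58, with 54 in CKO and 103 in control, followed by the amino acid transporter Slc7a5 at -0.20, while the cystathionine enzyme Cth was at 0.17. Against the local background column Vldlr was at 0.20.

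Of the aminoacyl-tRNA synthetases, many of which ATF4 controls, 9 of 18 were higher and 9 lower, with a median of 0.00. Rars was at 0.37 (163 in CKO and 119 in control), Iars at -0.25 (218 in CKO and 273 in control), Qars at 0.17 and Vars at 0.14. Against the local background column Rars was at -0.24, Iars at 0.13 and Qars at -0.29. Transcripts known from other cells to be cut by IRE1 were higher in 5 of 7 cases, beside 42.2% of all genes. The median of this list was 0.05. Col6a1 (0.46) and Sparc (0.21) were the highest, Scara3 (-0.19) the lowest, and Pdgfrb was at 0.06. Against the local background column the list's median was -0.085 and Sparc was at -0.28. Col6a1, Sparc and Pdgfrb are also genes of fibroblasts and stellate cells.

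**Figure D4:**
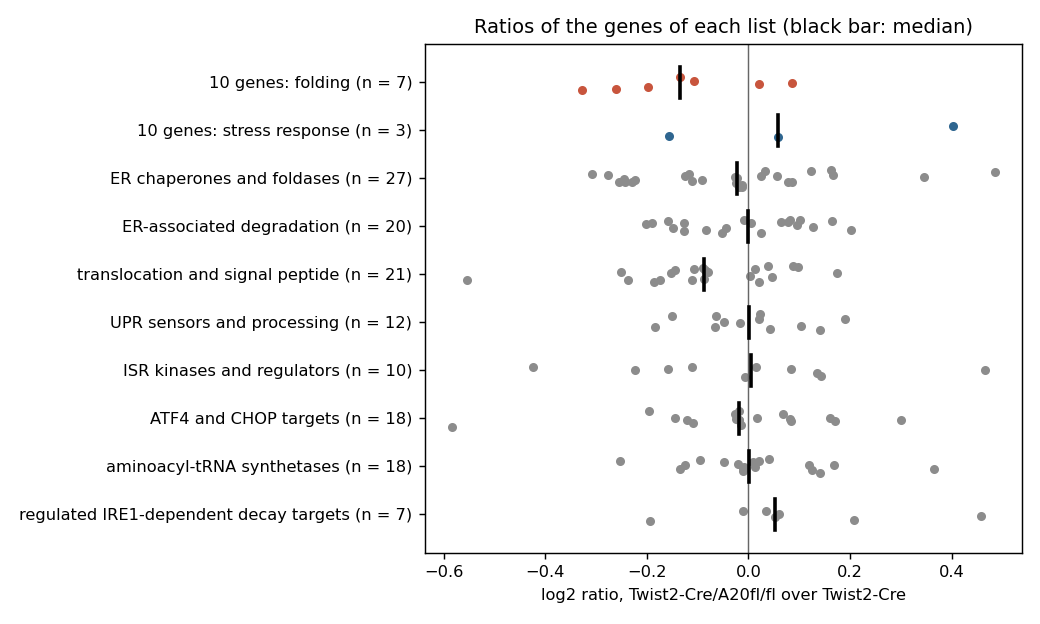
Log2 ratio of CKO over control (horizontal axis) of every gene above background in each list (points, 1 per gene), with the list's median as a black bar; vertical scatter within a row has no meaning. All 8 related lists have medians between -0.09 and 0.05, and the folding group of the 10 genes lies at -0.13.

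Markers of macrophages differed more between the 2 arrays than the genes above. Over all genes, 42.2% were higher in CKO and 57.7% lower. Of 12 markers of Kupffer cells and macrophages 11 were above background, all 11 higher in CKO, with ratios from 0.25 to 3.91, a median of 1.30 and a summed deposited intensity of 9144 in CKO and 2735 in control. Marco (3.91), Lyz2 (1.84) and C1qa (1.60) led them. Markers of T and NK cells were higher in 7 of 7 above background, with a median of 0.49. That median was 1.81 in the deposited values, 0.87 with an offset of 16 and 0.05 against the local background column. Over all measured T and NK markers the sums were 284 in CKO and 70 in control. Nkg7 (26) and Cd3g (9) entered the CKO sum alone, as they had no control value. Sums of the other lists also cover all measured markers, and Adgre1 (5) entered the macrophage sum of CKO alone. Neutrophil markers were higher in 5 of 6, with a median of 0.22. Plasma and B cells had 6 of 9 measured markers above background, a median of 0.03, and sums of 101 in CKO and 87 in control. The plasma cell genes Tnfrsf17, Pou2af1 and Irf4 were not above background on both arrays.

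Hepatocyte markers had a median of 0.02 over 10 genes, with 5 higher and 4 lower, and sums of 169890 in CKO and 188570 in control. Their largest ratios were those of Apoc3 (-0.43), Tat (-0.42) and Hnf4a (0.33). Markers of stellate cells and fibroblasts were higher in 7 of 9, beside 42.2% of all genes. Col1a2 was at 0.62 and Dcn at -0.52. The sums of these markers were 1389.5 in CKO and 1648.5 in control, of which Dcn gave 918 and 1387. The median ratio of the stellate and fibroblast markers was 0.06. Their median was 0.58 in the deposited values and 0.64 with plain subtraction. Markers of endothelial cells had a median of -0.29 over 6 genes, led by Oit3 (-0.64). Those of bile duct cells were lower in 4 of 4, led by Krt19 (-0.33), beside 57.7% of all genes. The part of these markers in the ratios of the folding and stress response genes was not tested.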

How the data were processed

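Total RNA of whole liver was measured on 2 single-colour arrays, with groups taken from the labelled genotype. Per the file headers, each scanner file gives a median intensity per spot and a median local background, from 3 gains. Per the labels' protocols, RNA was amplified and coupled to Cy5. The deposited value table is also a linear intensity, and its making is not stated; on these values it follows the spot intensity in a straight line with slopes of 0.825 (CKO) and 0.859 (control) that reaches 0 at the blank level.

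Spots were corrected with normexp against the mean of 384 blank spots (limma 3.58.1, R 4.3.3, offset 50), control spots and 4 flagged spots were left out, and arrays were quantile-normalized on the log2 scale. The steps, without the local background setting, were also run on simulated arrays with known changes, and the outcome is not given here. Probes were named from the platform annotation and averaged per gene. Of 23470 gene probes, 73.6% (CKO) and 73.8% (control) were above background; the number of arrays limits the precision. Probes of 1 gene differed by 0.13 (SD of log2 ratios, 717 genes).

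The 10 genes, gene lists and settings were chosen with earlier results of these data known. Named genes were the 10, Tnfaip3, and the 4 largest absolute ratios of each related list and up to 3 of each marker list. Protein sequences were not used here. With 2 arrays no likeness of pattern between genes was measured.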

Additional observations from a re-analysis of the deposited data

How the results depend on the processing

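A value was counted as moved when it shifted by more than 0.13, the SD between probes of 1 gene, and a count when it differed by over 1.5 times. Median scaling and cyclic loess moved no result. The difference between the folding and stress response medians was -0.36 with plain subtraction of the blank mean, -0.40 in the deposited values (stress response median 0.21) and 0.21 against the local background column, where the folding median was 0.28, 3 of 7 folding genes were lower and the median of the IRE1 decay targets was -0.085. Leaving out 1 of the 10 genes at a time gave folding medians from -0.17 to -0.12, stress response medians from -0.049 (without Asns) to 0.23 (without Ddit3) and differences from -0.37 to -0.086 (without Asns). At 1.5-fold, 1 of the 10 genes, Asns, was higher with plain subtraction, an offset of 16 and in the deposited values. Against the local background column the 1 higher gene was Sdf2l1, and 2, Creld2 and Xbp1, were lower. At 2-fold, 1 gene, Asns, was higher with plain subtraction and in the deposited values. Against the local background column 1 gene, Xbp1, was 2-fold lower. Counts over all genes depended on background handling. At 1.5-fold they were 952 higher and 629 lower with plain subtraction, 796 and 631 against the local background column, 398 and 94 with an offset of 16, and 944 and 513 in the deposited values, against 240 and 59. At 2-fold they were 431 and 84, 432 and 197, 181 and 19, and 497 and 103 in the same order, against 90 and 11. Xbp1 alone among the 10 genes changed sign in the deposited values, and 7 did against the local background column; the cause was not tested. Of the recomputed values of single genes, counts within lists and marker lists, 196 stayed within these limits and 46 moved. No paired analysis was possible because each genotype has 1 array. Signal over background limits the dim genes, among them Asns, Trib3, Mthfd2, Psat1 and Cdnf.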
